A study of Mus musculus with 11 samples.

Results

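The insulin-like growth factor system was followed in the lumbar spinal cord through 10 genes: the growth factors Igf1 and Igf2, the receptors Igf1r and Igf2r, and the binding proteins Igfbp2 to Igfbp7. They were taken by symbol from the 20888 rows of the deposited table, where all 10 had a row, and all 10 passed the filter on low values. RNA came from C57BL/6 mice at 10 months of age, a mouse study of an inherited axonal neuropathy, Charcot-Marie-Tooth disease type 2A. The 11 libraries were 3 from nontransgenic mice (nTg), 3 from mice of genotype MFN2-R94Q, which carry a mutant mitofusin 2, and 5 from mice of genotype MFN2-R94Q:MFN1, which carry mitofusin 1 as well. The promoter that drives each transgene, the number of founder lines, and the sex of the animals were not given in the sources used here. The labels name no treatment. As the series describes its groups in mice, a library was treated as coming from 1 animal.

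Insulin-like growth factors are secreted peptides that promote growth, survival and myelination. Igf1r is a receptor tyrosine kinase that signals through insulin receptor substrates to the PI3K, Akt and mTOR pathway, whereas Igf2r, the mannose 6-phosphate receptor, takes up Igf2 for breakdown and sorts lysosomal enzymes. The binding proteins hold the growth factors outside the cell, lengthen their life and limit or aid their access to the receptor; Igfbp7 is a more distant relative that binds insulin-like growth factors weakly. In the nervous system the known sources include microglia for Igf1, the meninges for Igf2 and Igfbp6, astrocytes for Igfbp2 and vessels for Igfbp7.

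Promoter sequences are shown for 3 of the 4 members that passed the test in a comparison below, since these are genes whose messenger RNA differed between genotypes. For the other, Igfbp4, the listed window lies inside the gene's RefSeq span, downstream of its first base, and is not shown. Each is the 250 bases before the first RefSeq start listed on GRCm38.p6, 5′ to 3′ on the gene's own strand: chr1:72824230-72824479, plus strand for Igfbp2, chr1:72874866-72875115, minus strand for Igfbp5 and chr5:77408046-77408295, minus strand for Igfbp7. Capitals mark motifs searched on both strands, and no marked motifs overlap. The first is the GC box, spelled GGGCGG. The second is a short glucocorticoid receptor motif, spelled AGAACA.
Igfbp2: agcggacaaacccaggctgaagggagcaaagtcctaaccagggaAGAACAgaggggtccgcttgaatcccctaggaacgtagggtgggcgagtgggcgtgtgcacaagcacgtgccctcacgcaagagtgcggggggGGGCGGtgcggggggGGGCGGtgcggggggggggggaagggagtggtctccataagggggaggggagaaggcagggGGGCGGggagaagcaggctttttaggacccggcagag
Igfbp5: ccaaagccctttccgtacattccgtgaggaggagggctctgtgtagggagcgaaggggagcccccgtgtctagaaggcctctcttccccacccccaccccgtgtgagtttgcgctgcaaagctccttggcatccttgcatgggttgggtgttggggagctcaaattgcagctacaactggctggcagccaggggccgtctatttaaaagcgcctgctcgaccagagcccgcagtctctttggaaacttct
Igfbp7: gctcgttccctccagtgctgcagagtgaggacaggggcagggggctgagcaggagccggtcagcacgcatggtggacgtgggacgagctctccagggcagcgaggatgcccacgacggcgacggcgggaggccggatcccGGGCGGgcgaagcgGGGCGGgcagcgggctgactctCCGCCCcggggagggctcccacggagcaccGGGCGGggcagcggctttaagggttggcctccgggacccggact

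The Igfbp2 window held 3 GC boxes and 1 glucocorticoid receptor motif, and the Igfbp7 window held 4 GC boxes. These letters were not found in the Igfbp5 window. Of 32851 RefSeq promoter windows of this length, 32.7% held a GC box and 16.1% the glucocorticoid receptor motif. Igfbp2 (chromosome 1, 72824480 to 72852474) and Igfbp5 (chromosome 1, 72858065 to 72874865) are neighbours on opposite strands, with 5590 bases between their ends. Igfbp4 lies on chromosome 11 (99040005 to 99052655) and Igfbp7 on chromosome 5 (77349240 to 77408045), and these coordinates are those of RefSeq on GRCm38.p6.

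Values are the deposited RPKM, read numbers scaled to gene length and library size, so that levels may be set against each other between genes. Library depth, worked out from short RNA genes where 1 read moves the value visibly, was lowest at 30.7 M and highest at 72.0 M reads, with no group set apart. With the longest GENCODE M21 transcript as the length, which is an approximation, the members were backed by 19 reads (Igfbp6 in its shallowest case) to 7174 reads (Igfbp5) per library. MFN2-R94Q replicate 2 stood apart from its group, with an SD of its log2 difference over genes of 0.238 and 0.201 from replicates 1 and 3, where no other pair of a group exceeded 0.154. In MFN2-R94Q:MFN1 replicate 3, markers of meninges and Schwann cells were high, as given with Igf2 below. Mouse Mfn1 lay between 24.2 and 26.6 RPKM and Mfn2 between 43.4 and 47.7 RPKM in all libraries. Neither checks the labels, as no source used here says from which species the transgenes come. Markers of neurons, astrocytes and oligodendrocytes were present at summed levels of at least 1570, 1691 and 3772 RPKM in every library. In such whole-tissue RNA, fewer cells of a type and less RNA per cell cannot be told apart.

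In nTg spinal cord the binding proteins stood above the receptors and the receptors above the growth factors, except that Igfbp3 and Igfbp6 lay lower. Igfbp2 was highest at 13.7 ± 1.1 RPKM (SD, n = 3), followed by Igfbp5 at 13.3 ± 0.78, and the ranges of these neighbours overlapped. Next came Igfbp7 at 11.8 ± 0.26, Igfbp4 at 9.07 ± 2.0, Igf1r at 5.97 ± 0.23 and Igf2r at 5.20 ± 0.060 RPKM. The lowest were Igfbp3 at 2.79 ± 0.26, Igf2 at 1.40 ± 0.19, Igfbp6 at 0.854 ± 0.10 and Igf1 at 0.563 ± 0.048 RPKM. Apart from Igfbp2 and Igfbp5, no neighbours in this order overlapped in the 3 nTg libraries. The plot of each gene's level shows these values for every library.

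**Figure D1:**
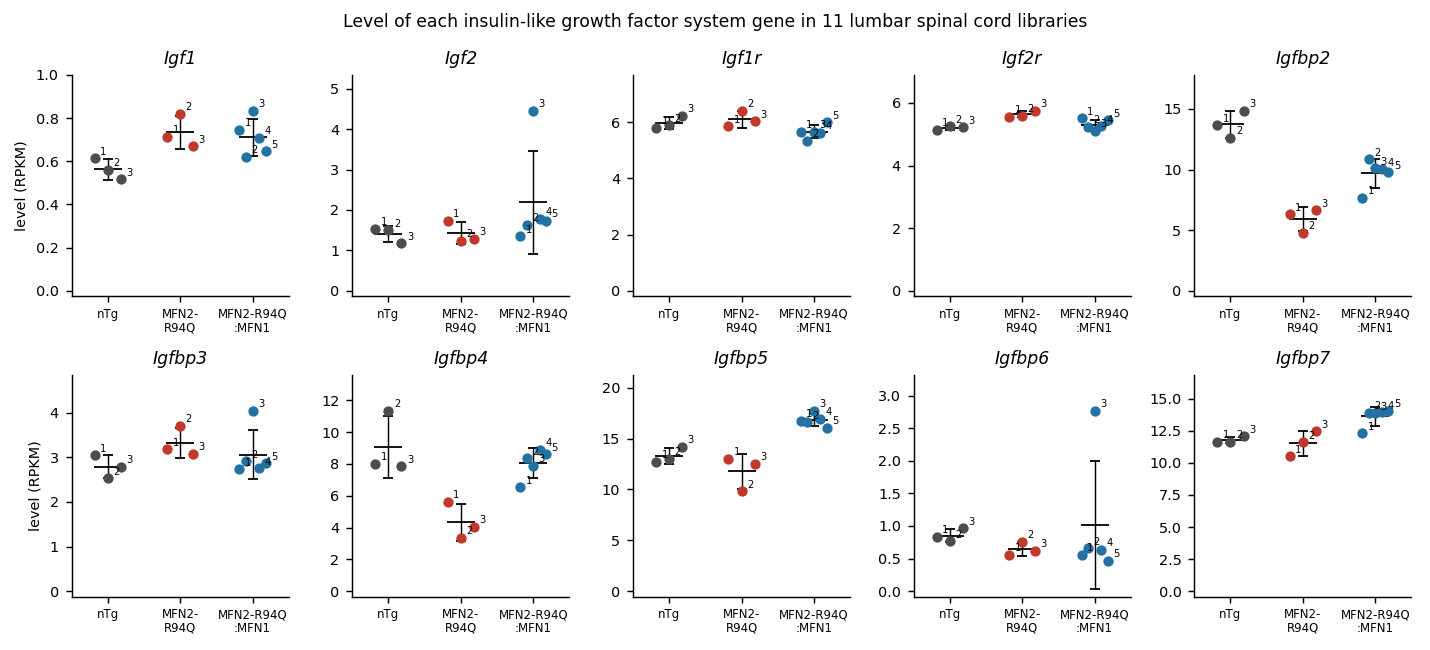
Level in RPKM (y axis, from 0) of the 10 genes in 3 nTg, 3 MFN2-R94Q and 5 MFN2-R94Q:MFN1 libraries (x axis); points are libraries with their replicate number, the horizontal bar is the mean and the whiskers are 1 SD. Igfbp2 and Igfbp4 are lowest in MFN2-R94Q, Igfbp5 is highest in MFN2-R94Q:MFN1, and replicate 3 of that group lies far above the rest for Igf2 and Igfbp6.

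MFN2-R94Q against nTg set mice with the mutant mitofusin against mice without a transgene. No group carried a normal mitofusin 2 transgene, so the mutation and the presence of a transgene cannot be told apart. Igfbp2 and Igfbp4 fell, to less than their level in any nTg library, and no member rose. These were 2 of 10 members called, both lower, in a comparison where limma called 17.9% of the 14347 tested genes (10.4% lower and 7.5% higher). The median log2 fold change was -0.01 over the members and -0.002 over all tested genes. The growth factors, the receptors and the other 4 binding proteins did not pass the test.

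Igfbp2, an abundant binding protein of the central nervous system with affinity for both growth factors, was at 13.6, 12.6 and 14.9 RPKM in nTg. In MFN2-R94Q it was at 6.32, 4.77 and 6.64 RPKM. Every MFN2-R94Q library therefore lay below every nTg library, with replicate 2 the lowest. The fitted level fell to 0.448 of nTg on the log2(RPKM + 0.5) scale used for all fold changes here, a log2 fold change of -1.16 (SE 0.12, 95% interval -1.42 to -0.89, limma adjusted p = 0.00087). Without MFN2-R94Q replicate 2 it was -1.02 (adjusted p = 0.00029), and over the 21 alternatives the adjusted p ran from 4.5e-05 to 0.012.

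Igfbp4, a binding protein that is cleaved by the protease Pappa, was at 8.02, 11.3 and 7.85 RPKM in nTg. In MFN2-R94Q it was at 5.62, 3.37 and 4.03 RPKM. The groups did not overlap, and nTg replicate 2 was the highest of all libraries. The fitted level fell to 0.503 of nTg (log2 -0.99, SE 0.16, 95% interval -1.35 to -0.64, limma adjusted p = 0.0033). Without nTg replicate 2 the log2 fold change was -0.83 and without MFN2-R94Q replicate 2 it was -0.84, and the adjusted p over all alternatives ran from 0.00024 to 0.030.

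Igfbp5, a binding protein that also binds extracellular matrix, was at 12.7, 13.0 and 14.2 RPKM in nTg and at 13.0, 9.81 and 12.5 RPKM in MFN2-R94Q. The groups overlapped. The log2 fold change of -0.18 (95% interval -0.36 to -0.002) did not pass (limma adjusted p = 0.14), but it did without MFN2-R94Q replicate 1 (log2 -0.25, adjusted p = 0.048). Igfbp7, an endothelial secreted protein, was at 11.6 to 12.1 RPKM in nTg and 10.5 to 12.5 RPKM in MFN2-R94Q (log2 -0.03, 95% interval -0.17 to 0.10, limma adjusted p = 0.74). Igfbp3, the main carrier in blood, was at 2.53 to 3.05 RPKM in nTg and 3.08 to 3.70 RPKM in MFN2-R94Q, without overlap (log2 0.22, 95% interval -0.04 to 0.47, limma adjusted p = 0.21). Igfbp6, which prefers Igf2, was at 0.832, 0.766 and 0.962 RPKM in nTg and 0.557, 0.759 and 0.621 RPKM in MFN2-R94Q, without overlap. It had a log2 fold change of -0.24, and its 95% interval of -0.97 to 0.49 was the widest among the members.

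Igf1, the growth factor, was at 0.613, 0.561 and 0.517 RPKM in nTg. In MFN2-R94Q it was at 0.712, 0.820 and 0.669 RPKM, so that each library lay above the nTg range. The difference did not pass (log2 0.21, SE 0.086, 95% interval 0.03 to 0.40, limma adjusted p = 0.10). Igf2r showed the same arrangement, at 5.14 to 5.25 RPKM in nTg and 5.57 to 5.76 RPKM in MFN2-R94Q (log2 0.11, 95% interval 0.01 to 0.20, limma adjusted p = 0.11). The groups did not overlap for 6 of 10 members, 3 higher and 3 lower, against 35.7% of all tested genes (16.6% higher and 19.1% lower). With library weights Igf2r passed (adjusted p = 0.020). Igf1r was at 5.79 to 6.22 RPKM in nTg and 5.84 to 6.41 RPKM in MFN2-R94Q, and its 95% interval of -0.09 to 0.14 on the log2 scale was narrow around 0. Igf2 was at 1.528, 1.496 and 1.179 RPKM in nTg and 1.74, 1.24 and 1.29 RPKM in MFN2-R94Q (log2 0.01, 95% interval -0.58 to 0.60).

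**Figure D2:**
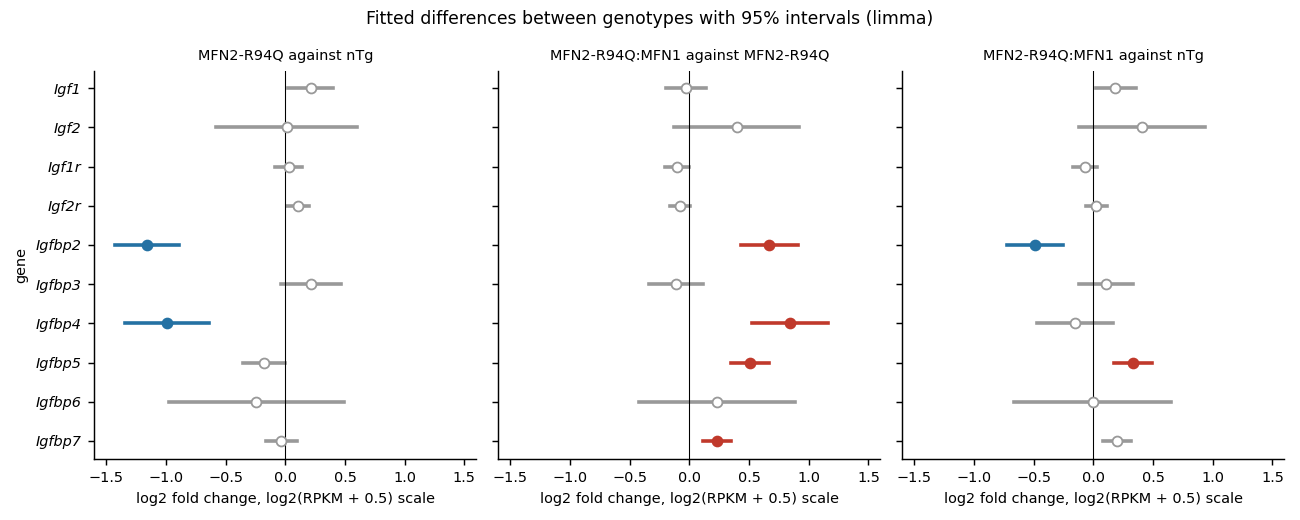
Fitted log2 fold change on the log2(RPKM + 0.5) scale (x axis) of the 10 genes (y axis) in the 3 comparisons; points are limma estimates, lines are 95% intervals, filled points passed an adjusted p of 0.05 and open points did not. Igfbp2 and Igfbp4 are lower in MFN2-R94Q, and Igfbp2, Igfbp4, Igfbp5 and Igfbp7 are higher in MFN2-R94Q:MFN1 than in MFN2-R94Q.

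MFN2-R94Q:MFN1 against MFN2-R94Q set mice with added mitofusin 1 against mice without it, on the mutant background. No group carried mitofusin 1 alone, so its effect without the mutant is not known here. Igfbp2, Igfbp4, Igfbp5 and Igfbp7 rose and no member fell. The 4 of 10 members called, all of them higher, stand beside 12.9% of tested genes called in this comparison (9.55% higher and 3.33% lower). The split over all genes moved with scaling, from 1370 higher and 478 lower to 1004 and 833 with quantile normalization and 1115 and 675 with a trimmed mean scaling, while 4 members higher and 0 lower were called under both. The median log2 fold change was 0.23 over the members and 0.01 over all tested genes. The comparison shares its MFN2-R94Q libraries with the previous one, so a rise here and a fall there are not separate evidence.

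Igfbp2 was at 7.65, 10.8, 10.1, 10.0 and 9.77 RPKM in MFN2-R94Q:MFN1, each above the highest MFN2-R94Q library. Its fitted level rose 1.59-fold (log2 0.67, SE 0.11, 95% interval 0.43 to 0.91, limma adjusted p = 0.0035). Igfbp4 was at 6.52, 8.36, 7.88, 8.88 and 8.62 RPKM, again without overlap, and rose 1.79-fold (log2 0.84, SE 0.15, 95% interval 0.52 to 1.16, limma adjusted p = 0.0047). For both genes replicate 1 was the lowest of the 5 libraries.

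Igfbp5 was at 16.8, 16.6, 17.7, 17.0 and 16.0 RPKM, above every library of the other groups. It rose 1.42-fold over MFN2-R94Q (log2 0.51, SE 0.073, 95% interval 0.35 to 0.67, limma adjusted p = 0.0019). Igfbp7 was at 12.3, 13.9, 13.9, 14.0 and 14.1 RPKM, and its replicate 1 fell inside the MFN2-R94Q range. Its rise was the smallest of the 4, at 1.18-fold (log2 0.23, SE 0.055, 95% interval 0.11 to 0.35, limma adjusted p = 0.019). Igfbp2, Igfbp4 and Igfbp5 passed in each of 21 alternatives. Igfbp7 lost the call in 1 of them, when MFN2-R94Q replicate 2 and MFN2-R94Q:MFN1 replicate 3 were left out together, an alternative chosen after seeing the data (log2 0.23, adjusted p = 0.069, against a range from 0.0088 to 0.069).

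Without overlap between groups were 3 members higher (Igfbp2, Igfbp4 and Igfbp5) and 1 lower (Igf2r), where 20.1% of tested genes had no overlap, 13.1% higher and 7.05% lower. The remaining members did not pass. Igf1 was at 0.745, 0.622, 0.835, 0.707 and 0.646 RPKM, across the MFN2-R94Q range (log2 -0.03, 95% interval -0.20 to 0.14, limma adjusted p = 0.84). Igf1r was at 5.33 to 5.98 RPKM (log2 -0.10, 95% interval -0.20 to 0.001). Igf2r was at 5.11 to 5.51 RPKM, all below the MFN2-R94Q libraries (log2 -0.08, 95% interval -0.17 to 0.005, limma adjusted p = 0.20), and passed with library weights alone (adjusted p = 0.035).

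MFN2-R94Q:MFN1 against nTg asked what differed with both transgenes. Igfbp2 was lower and Igfbp5 higher, 2 of 10 members. Calls were few in this comparison, at 2.31% of the 14347 genes, 2.09% upward and 0.223% downward. Igfbp2 was at 0.713 of the nTg level (log2 -0.49, SE 0.11, 95% interval -0.73 to -0.25, limma adjusted p = 0.035), with all 5 libraries below the 3 of nTg. Igfbp5 was 1.26-fold higher (log2 0.33, SE 0.073, 95% interval 0.17 to 0.49, limma adjusted p = 0.034), with all 5 libraries above. Over 21 alternatives the Igfbp2 difference stayed between -0.54 and -0.41 and lost the call in 8 (adjusted p from 0.0067 to 0.15). The Igfbp5 difference stayed between 0.30 and 0.37 and lost it in 11 (adjusted p from 0.00059 to 0.16). Among these, leaving out any 1 nTg library, or MFN2-R94Q:MFN1 replicate 3, 4 or 5, left neither gene called.

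Igfbp4 was at 0.901 of the nTg level (log2 -0.15, 95% interval -0.47 to 0.17, limma adjusted p = 0.67), and without nTg replicate 2 the log2 difference was 0.01. Igfbp7 was higher in all 5 libraries than in any of nTg, but its 1.15-fold difference did not pass (log2 0.20, 95% interval 0.08 to 0.32, limma adjusted p = 0.092). It passed in 4 of 21 alternatives, among them without MFN2-R94Q:MFN1 replicate 1 (log2 0.23, adjusted p = 0.034), over a range of adjusted p from 0.028 to 0.28. Igf1 was likewise above the nTg range in all 5 libraries and did not pass (log2 0.19, 95% interval 0.02 to 0.35, limma adjusted p = 0.27). Without overlap were 3 members higher and 1 lower, where 14.1% of tested genes had no overlap (9.03% higher and 5.05% lower).

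The summed level of the 6 binding proteins was 49.9 to 52.7 RPKM in nTg, 34.0 to 39.4 in MFN2-R94Q and 46.5 to 56.4 in MFN2-R94Q:MFN1. The MFN2-R94Q libraries lay below all others, and the other groups overlapped. The make-up of the sum differed as well. Igfbp2 accounted for 26.6 ± 2.0% of the nTg sum (SD over 3 libraries). Its share was 15.7 ± 1.5% for MFN2-R94Q (3 libraries) and 18.4 ± 1.4% for MFN2-R94Q:MFN1 (5 libraries). Igfbp5 made up 25.8 ± 0.99%, 31.2 ± 2.2% and 32.3 ± 2.2% in the same order. In the 2 transgenic groups Igfbp5 and Igfbp7 were thus the highest members, at mean levels of 11.8 and 11.5 RPKM in MFN2-R94Q and 16.8 and 13.6 RPKM in MFN2-R94Q:MFN1. These sums were not tested.

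**Figure D3:**
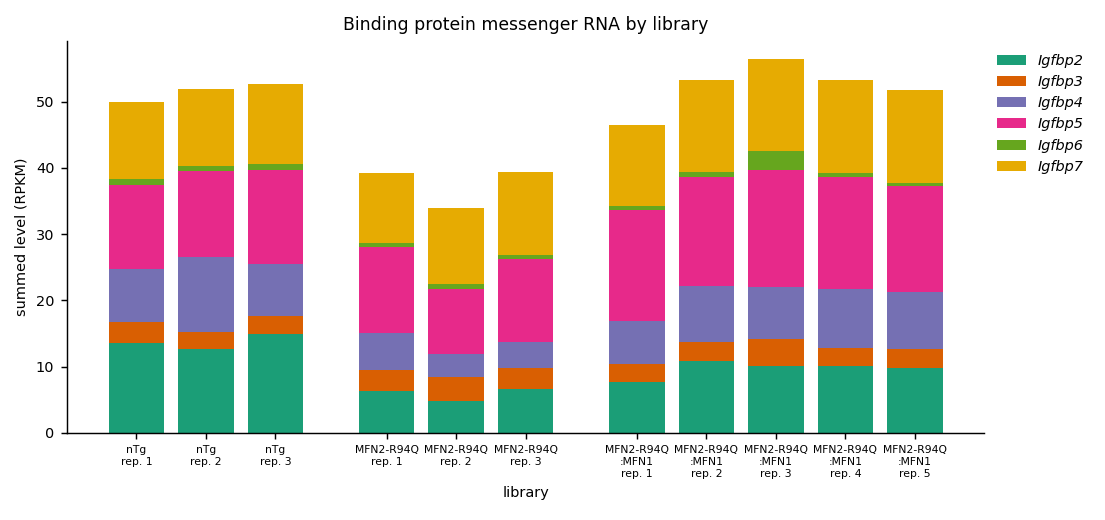
Summed level of the 6 binding protein genes in RPKM (y axis, from 0) in each of the 11 libraries (x axis), divided by gene; each bar is 1 library. The 3 MFN2-R94Q bars reach 34.0 to 39.4 RPKM, below the other 8, and their Igfbp2 and Igfbp4 segments are the shortest.

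Igf2, Igfbp6 and Igfbp3 were set apart by 1 library. In MFN2-R94Q:MFN1, Igf2 was at 1.35, 1.63, 4.46, 1.79 and 1.73 RPKM in replicates 1 to 5. Igfbp6 was at 0.555, 0.657, 2.77, 0.636 and 0.470 RPKM, and Igfbp3 at 2.73, 2.91, 4.04, 2.75 and 2.86 RPKM. In all 3 genes replicate 3 was the highest of the 11 libraries, and the other 4 of its group lay close together. Replicate 3 was the highest library for 5 of the 10 members, Igf1 and Igfbp5 included, against 7.12% of all tested genes.

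In that library 10 of 12 leptomeningeal fibroblast markers and 2 of 4 Schwann cell markers were also at their highest. The summed meningeal markers stood at 22.3 RPKM there and at 14.2 to 16.5 RPKM in the other 10 libraries. Slc13a4, a transporter of meningeal fibroblasts, was at 0.752 RPKM against at most 0.118 elsewhere, and Ogn at 2.09 against at most 0.841 RPKM. Slc22a6, another meningeal transporter, was at or near 0 in every other library. The sum of the 4 Schwann cell markers was 5.03 RPKM against at most 3.85 elsewhere, with Prx, a scaffold protein of myelinating Schwann cells, at 1.15 RPKM against at most 0.166. Markers of choroid plexus summed to 2.33 RPKM there and to at most 1.94 RPKM elsewhere. The part of these cells in the Igf2, Igfbp6 and Igfbp3 values was not tested.

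With and without replicate 3, none of the 3 genes passed. Igf2 against MFN2-R94Q went from 0.40 to 0.15 on the log2 scale without it, and Igf2 against nTg from 0.41 to 0.16. Igfbp6 against MFN2-R94Q went from 0.24 to -0.085, and Igfbp6 against nTg from -0.007 to -0.33 (limma adjusted p = 0.13), since the other 4 libraries all lay below the nTg range of 0.766 to 0.962 RPKM. Igf2 overlaps the antisense gene Igf2os (chromosome 7, 142659680 to 142670356), and no source used here says whether counting used the strand. Igf2os was at most 0.0631 RPKM in any library, and this highest value was in MFN2-R94Q:MFN1 replicate 3, where Igf2 was highest too.

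**Figure D4:**
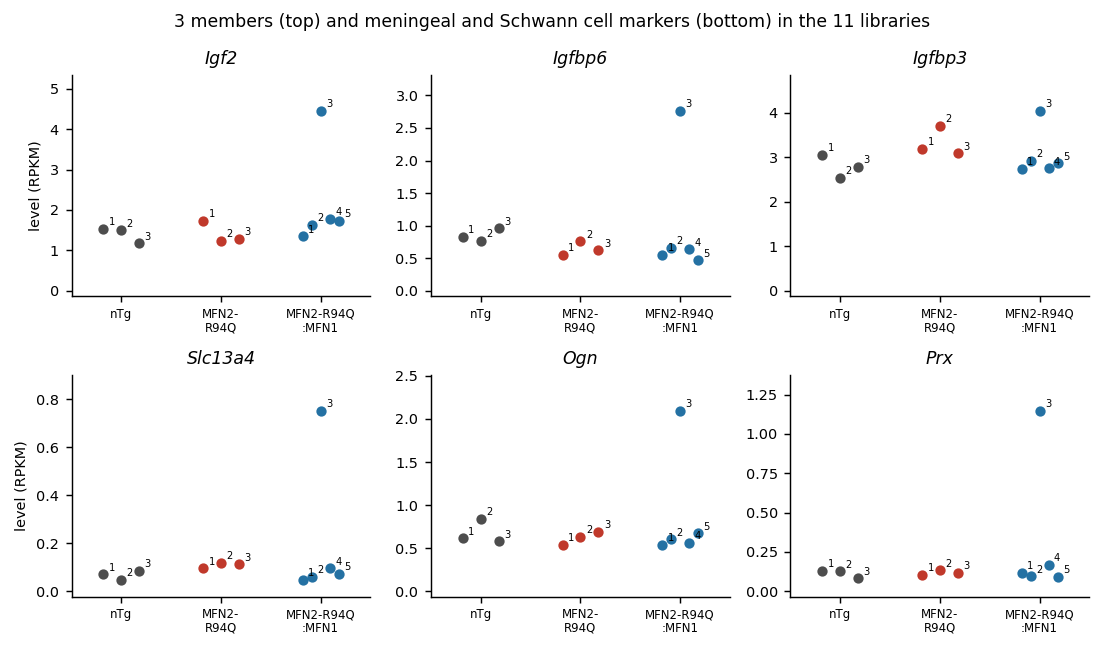
Level in RPKM (y axes) of Igf2, Igfbp6 and Igfbp3 (top row) and of the meningeal markers Slc13a4 and Ogn and the Schwann cell marker Prx (bottom row) in the 3 genotype groups (x axis); points are libraries with their replicate number. Replicate 3 of MFN2-R94Q:MFN1 is the highest point in all 6 panels, at 1.15 RPKM for Prx where no other library exceeds 0.166.

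Other gene groups moved alongside the called binding proteins. The glucocorticoid response list summed to 637 to 741 RPKM in nTg, 861 to 1746 in MFN2-R94Q and 717 to 876 in MFN2-R94Q:MFN1, with the highest value in MFN2-R94Q replicate 2, the library in which Igfbp2, Igfbp4 and Igfbp5 were lowest. Most of this sum came from the metallothioneins Mt1 and Mt2, at mean levels of 300.5 and 190.8 RPKM in nTg. They averaged 547.8 and 367.5 RPKM in MFN2-R94Q. In MFN2-R94Q against nTg 5 of the list's 12 genes rose (Mt1, Mt2, Hif3a, Fkbp5 and Errfi1) and none fell. Over all tested genes 7.5% were called higher and 10.4% lower. The list's median log2 fold change was 0.77, with Tsc22d3 at a mean of 64.1 RPKM in nTg and 64.3 RPKM in MFN2-R94Q. Microglia markers summed to 170 to 178 RPKM in nTg, 164 to 189 in MFN2-R94Q and 242 to 270 in MFN2-R94Q:MFN1. All 10 rose in MFN2-R94Q:MFN1 against MFN2-R94Q, where 9.55% of all tested genes were called higher. In that comparison Igfbp2, Igfbp4, Igfbp5 and Igfbp7 rose as well. Activated microglia markers were higher already in MFN2-R94Q against nTg, 8 of 10 with none lower, at a median log2 fold change of 0.45. In MFN2-R94Q:MFN1 against nTg 9 of 10 were higher, where 2.09% of all tested genes were called higher. The sums of the activated list were 841 to 848 RPKM in nTg, 827 to 955 in MFN2-R94Q and 974 to 1113 in MFN2-R94Q:MFN1. Apoe and Spp1 made up most of them, at mean levels of 748.6 and 73.6 RPKM in nTg. Neither passed in MFN2-R94Q against nTg, at means of 796.2 and 68.3 RPKM in MFN2-R94Q. The sums therefore say little about the 8 markers called there.

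Other marker lists were lowest in MFN2-R94Q, as Igfbp2 and Igfbp4 were. Oligodendrocyte markers summed to 4190 to 4561 RPKM in nTg, 3772 to 4098 in MFN2-R94Q and 4373 to 4674 in MFN2-R94Q:MFN1. Of these 10 genes 4 fell and 1 rose in MFN2-R94Q against nTg, and 6 rose in MFN2-R94Q:MFN1 against MFN2-R94Q. Over all tested genes 10.4% were called lower and 7.5% higher in the first of these comparisons. In the second 3.33% were called lower and 9.55% higher. Ependymal markers summed to 23.7 to 26.5, 20.8 to 22.5 and 24.6 to 29.1 RPKM in the 3 groups, with 2 of 6 lower and then 3 of 6 higher. Motor neuron markers summed to 110.5 to 113.3, 88.71 to 100.6 and 101.0 to 109.2 RPKM, with 6 of 8 lower in MFN2-R94Q against nTg and 1 higher in MFN2-R94Q:MFN1 against MFN2-R94Q. The MFN2-R94Q sums of all 3 lists lay below every nTg and every MFN2-R94Q:MFN1 library. Endothelial markers went both ways in MFN2-R94Q, 2 higher and 4 lower of 10, with sums of 98.7 to 107 RPKM in nTg and 94.3 to 97.4 RPKM in MFN2-R94Q. Astrocyte markers were 3 higher and 2 lower of 10, at sums of 1701 to 1736 RPKM in nTg and 1691 to 1775 RPKM in MFN2-R94Q. The sums were 1862 to 1942 RPKM in MFN2-R94Q:MFN1, where Gfap averaged 465.1 RPKM against 273.9 RPKM in nTg. Of the 10, Gfap alone passed in MFN2-R94Q:MFN1 against nTg, where 2.31% of all tested genes were called. Pericyte and smooth muscle markers summed to 51.2 to 56.0, 46.5 to 55.2 and 57.1 to 62.0 RPKM in the 3 groups. The part of any of these in the binding protein differences was not tested.

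The genes with library profiles most like those of the 4 called members were found among 11901 candidates by the root mean square difference of log2 deviations from the nTg mean over the 11 libraries. For Igfbp2 they were Nat8f3, Plac9a and Nat8f5, at 0.23 to 0.25 on the log2 scale. For Igfbp4 they were Serpind1, Arc and Ctsk, at 0.15 to 0.20. For Igfbp5 they were Itgam, Lxn and Fcgr1, at 0.064 to 0.079; Itgam and Fcgr1 are genes of microglia and macrophages. For Igfbp7 they were Rhbdd1, Spats1 and C1qtnf5, at 0.054 to 0.062. Nat8f3 and Nat8f5 have close copies, so the division of reads within that family is uncertain. Likeness depends on how far a gene moved and carries no test here.

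Of the 74 other genes of the pathway 64 passed the filter. In MFN2-R94Q against nTg 8 rose and 4 fell, 12 of 64 where 17.9% of all tested genes were called, at a median log2 fold change of 0.01. Among receptors and adaptors Insr, the insulin receptor, rose 1.21-fold (from 6.39 to 7.84 RPKM, limma adjusted p = 0.0033) and Ptpn11, a phosphatase of receptor signalling, rose 1.24-fold, while the docking protein Gab1 fell to 0.769 of nTg. In the PI3K, Akt and mTOR list 3 of 23 rose and 1 fell. The kinase Akt2 fell to 0.798 of nTg (from 16.9 to 13.4 RPKM, limma adjusted p = 0.0027). Rictor, a subunit of mTOR complex 2, rose 1.17-fold, the mTOR inhibitor Tsc1 1.16-fold and the kinase Rps6kb1 1.12-fold. The FoxO list held 11 genes: the FoxO factors, whose proteins Akt signalling restrains, and targets of these factors. Of the 11, 3 rose and none fell: Sesn1 1.27-fold, Foxo3 1.14-fold and Sesn3 1.11-fold. In mannose 6-phosphate sorting, the pathway of Igf2r, the adaptors Gga3 and Gga1 fell to 0.878 and 0.903 of nTg among 7 genes. None of the 7 growth hormone axis genes, the 4 tested availability genes or the 1 tested regulator of growth factor messenger RNA passed. The count of 12 was 6, 5 and 5 without nTg replicates 1, 2 and 3, and 6 without MFN2-R94Q replicate 2. The share called over all genes was then 11.8%, 8.47%, 11.8% and 11.3%, so that it fell as well.

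In MFN2-R94Q:MFN1 against MFN2-R94Q 2 pathway genes rose and 8 fell, 10 of 64 where 12.9% of tested genes were called, at a median log2 fold change of -0.02. Akt2 and Gab1 rose 1.13-fold and 1.31-fold. Insr, Tsc1 and Ptpn11 fell to 0.865, 0.869 and 0.828 of the MFN2-R94Q level. Of the FoxO list 4 of 11 fell: Sesn1 to 0.760, Sesn3 to 0.896, Bcl6 to 0.868 and Pdk4 to 0.577. For Pdk4 the groups overlapped, at 5.23 to 15.9 RPKM in MFN2-R94Q and 4.32 to 5.78 RPKM in MFN2-R94Q:MFN1. Htra1, a secreted protease that cleaves binding proteins, fell to 0.767; it was at 135 RPKM in MFN2-R94Q replicate 2 and at 76.1 to 93.5 RPKM in every other library. The count of 10 was 4 without MFN2-R94Q replicate 2, where 6.16% of all genes were called. It was 6, 6, 5 and 6 without MFN2-R94Q:MFN1 replicates 2, 3, 4 and 5, where 7.66%, 10.4%, 9.42% and 8.02% of all genes were called. In MFN2-R94Q:MFN1 against nTg limma called 0 of the 64, 2.31% being called over all tested genes.

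Igfbpl1, a secreted relative of the binding proteins, and Igfbp1, the binding protein of liver, were below the filter and so outside these counts; they are named after their values were seen. Igfbp1 was at most 0.0314 RPKM in any library. Igfbpl1 was at 0.0610, 0.0589 and 0.0423 RPKM in nTg, at 0.203, 0.288 and 0.224 RPKM in MFN2-R94Q, and at 0.423, 0.326, 0.271, 0.440 and 0.329 RPKM in MFN2-R94Q:MFN1. Every transgenic library exceeded every nTg library, while the transgenic groups overlapped. At the recovered depth this was about 4 to 67 reads per library. In the fit without a filter it passed against nTg in MFN2-R94Q (limma adjusted p = 0.014) and in MFN2-R94Q:MFN1 (limma adjusted p = 0.0017), but not between the transgenic groups (limma adjusted p = 0.083).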

How the data were processed

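Poly(A) RNA of 11 lumbar spinal cords was sequenced with a stranded kit, per the labels' protocols. The authors deposited RPKM values per gene, made with TopHat and Partek 7.17.0918 on mm10, per the submitters' processing notes. The gene annotation, and whether counting used the strand, were not given in the sources used here. Groups came from the genotype label, and replicate numbers follow accession order.

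Log2(RPKM + 0.5) values were fitted for the 14347 genes that reached 0.5 RPKM in 3 or more libraries, with limma 3.58.1 (R 4.3.3, variance trend, genotype only, all 11 libraries in 1 fit), with Benjamini-Hochberg adjustment over all tested genes and a threshold of 0.05. The fit was tested on simulated data with independent normal values, which held no divergent library such as MFN2-R94Q replicate 2. P-values test a difference between group means against the spread between these libraries. limma moderates that spread over all tested genes. Intervals are 95% intervals of the fit. The 3 comparisons share groups.

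Depth was recovered from short RNA genes under 160 bases, where 91.8% to 95.7% of values up to 5 reads per library came out within 0.02 of a whole read. The depth was chosen to bring this share near its highest, so the share is not a separate check. No count test was run, since the gene lengths behind the deposited RPKM were not given in the sources used here.

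Named were all members, up to 5 called genes per pathway list, the 3 nearest profiles per called member among genes averaging at least 1 RPKM (without predicted, small RNA and sex-linked genes), and list markers. A marker of the Schwann cell list is not reported here and was left out of its sums. Members and lists were chosen with earlier results of these data known. Alternatives were pseudocounts of 0.1 and 1, no filter, a filter at 1 RPKM, quantile normalization, scaling by a trimmed mean of M values (TMM, unweighted, computed on RPKM), fits of 2 groups only, library weights, no variance trend, each library left out, and 1 pair of libraries left out, the last chosen after seeing the data.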

Additional observations from a re-analysis of the deposited data

Results flagged for a closer look

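In MFN2-R94Q:MFN1 replicate 3, Igf2 at 4.457 RPKM, Igfbp3 at 4.043 RPKM and Igfbp6 at 2.766 RPKM each stood far above the other 4 libraries of the group. The gap to the nearest library made up 0.860, 0.863 and 0.918 of the group's range, above the critical value of 0.71 for 5 samples. Igfbp7 in MFN2-R94Q:MFN1 replicate 1 was far below the other 4, at 12.31 RPKM, with a gap of 0.896 of the range. The rule was applied to every member and to Igfbpl1, in this group only. For independent values of normal spread, chance alone marks about 1 in 20 such groups. Flags from the same library are not separate events.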

How the results depend on the processing

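No paired analysis was possible because the labels give no replicate numbers. Igfbp2 and Igfbp4 in MFN2-R94Q against nTg, and Igfbp2, Igfbp4 and Igfbp5 in MFN2-R94Q:MFN1 against MFN2-R94Q, kept their direction and their call in each of 21 alternatives. Members called in MFN2-R94Q:MFN1 against nTg went from 2 to 0 without the filter, 1 with quantile normalization and 0 without the variance trend, and ranged from 0 to 3 when each library was left out. Pathway genes called in MFN2-R94Q against nTg went from 12 to 7 without the filter, 3 with only 2 groups and 6 without MFN2-R94Q replicate 2 and MFN2-R94Q:MFN1 replicate 3 together, and ranged from 5 to 12 when each library was left out. In MFN2-R94Q:MFN1 against MFN2-R94Q they went from 10 to 4 without the filter and 5 without both libraries, and ranged from 4 to 9. Library weights raised both counts to 15. In MFN2-R94Q:MFN1 against nTg they went from 0 to 1 without the filter and to 1 with only 2 groups, and ranged from 0 to 1. Library weights reversed Igf2 (-0.059) and Igfbp7 (0.056) in MFN2-R94Q against nTg and Igf1 (0.023) in MFN2-R94Q:MFN1 against MFN2-R94Q. A pseudocount of 1 reversed Igfbp6 (0.020) in MFN2-R94Q:MFN1 against nTg, and leaving out both libraries reversed Igf1r (-0.007) in the first comparison and Igfbp6 (-0.016) in the second. With each library left out in turn, the log2 values that changed sign ranged from -0.102 to 0.080 (Igf2), -0.007 to 0.056 (Igf1r) and -0.089 to 0.028 (Igfbp7) in MFN2-R94Q against nTg, from -0.066 to 0.022 (Igf1) and -0.085 to 0.353 (Igfbp6) in MFN2-R94Q:MFN1 against MFN2-R94Q, and from -0.240 to 0.013 (Igfbp4) and -0.327 to 0.110 (Igfbp6) in MFN2-R94Q:MFN1 against nTg. None of these reversed values passed the test in either direction, and the cause was not tested. A filter at 1 RPKM removed Igf1 and Igfbp6, which then had no value. Over all genes, the 2561 called in MFN2-R94Q against nTg became 3678 with library weights, 846 with only 2 groups, 1692, 1213 and 1684 without nTg replicates 1, 2 and 3, and 1618 without MFN2-R94Q replicate 2. The 1848 called in MFN2-R94Q:MFN1 against MFN2-R94Q became 3378 with library weights, 1198 without the filter, 882 without MFN2-R94Q replicate 2, and 1097 and 1149 without MFN2-R94Q:MFN1 replicates 2 and 5. The 332 called in MFN2-R94Q:MFN1 against nTg became 590 with library weights, 566 with only 2 groups, 189, 192 and 213 without nTg replicates 1, 2 and 3, 205 without MFN2-R94Q:MFN1 replicate 4 and 589 without MFN2-R94Q replicate 2. The lowest approximate read numbers of Igf1, Igf2 and Igfbp6 were 126, 193 and 19 in a library.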
